A study of Drosophila melanogaster with 8 samples.

Results

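The cytosolic ribosomal protein genes were examined for AGO2 peaks. Members were all protein-coding genes of the Drosophila annotation whose symbol is RpL or RpS followed by a digit, or RpLP0, RpLP1 or RpLP2, which gave 91 of 13968 protein-coding genes on placed chromosomes. By symbol alone, 50 were assigned to the large subunit, 38 to the small subunit and 3 to the stalk. Genes whose symbol ends in -like were assigned in the same way, and whether their products sit in the ribosome was not checked. Peak lists came from Kc167 cells, an established female line derived from Drosophila embryos, in which Argonaute 2 (AGO2) was immunoprecipitated and the recovered DNA sequenced (ChIP-seq). Cells received triptolide at 10 µM for 60 min or a mock treatment, with 2 immunoprecipitations per treatment, and each immunoprecipitation had its own input library, so that the series held 8 samples. Values of the 4 inputs were not used here. No genetic alteration is named for either group, and the labels do not say whether replicates came from separate cultures, so p-values measure the spread between these samples, which may be technical. A peak was assigned to a member when any base of it lay in the gene or within 500 bp of it.

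Ribosomal proteins, together with ribosomal RNA, form the large and the small subunit of the ribosome. In animals their genes are among the most strongly transcribed, and many carry an initiator rich in pyrimidines at the start site. The stalk is a flexible arm of the large subunit that binds the factors driving initiation and elongation. In flies AGO2 carries small interfering RNAs to their targets, and some of it sits on chromatin. Triptolide blocks initiation by RNA polymerase II. The comparison therefore asks where AGO2 peaks were called at a highly transcribed gene group with and without a block of initiation.

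The triptolide lists held peaks at many of the members and the mock lists at almost none. Triptolide replicates 1 and 2 had a peak at 31 and 32 of the 91 genes (34.1% and 35.2%), against 1 and 3 genes (1.10% and 3.30%) in mock replicates 1 and 2. Of all protein-coding genes, 31.5% and 32% had a peak in the triptolide lists, against 5.85% and 10% in the mock lists. RpL24 was the sole member with a peak in all 4 lists. Both triptolide lists held 24 of the members (26.4%, against 22.5% of all protein-coding genes), at least 1 of them held 39 (42.9%, against 41.0% of all protein-coding genes), and 51 members had no peak in any list (56.0%, against 56.2%). The lists themselves were unequal, with 5594 and 5873 peaks after triptolide and 1055 and 1919 peaks in mock. Sequencing depth is unknown, so list length, depth and enrichment cannot be told apart. From reads, the paper reported far more AGO2 sites lost than gained after triptolide, the opposite direction to these list lengths. The counts of called peaks are therefore not read here as a gain of AGO2 binding.

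Sequences are given for the coding summits of 5 high ranking members. Only summits in coding sequence were taken, so the coding origin of these stretches is no result in itself. The placement of summits over all members is given further below. Each is written 5′ to 3′ on the strand of the gene, from the dm6 build, with the stretch between the outermost summits in capitals and up to 30 bp on either side, within the exon, in lower case. For RpL24 the stretch around the coding summits of all 4 lists was chr2L:13394460-13394575. For RpL37-1 the stretch around the summits of both triptolide lists was chrX:15138865-15138913, for RpLP1 chr2L:420390-420452, for RpS26 chr2L:18442742-18442866 and for RpL34a chr3R:26058708-26058814. RpLP1 is on the plus strand and the others are on the minus strand.
RpL24: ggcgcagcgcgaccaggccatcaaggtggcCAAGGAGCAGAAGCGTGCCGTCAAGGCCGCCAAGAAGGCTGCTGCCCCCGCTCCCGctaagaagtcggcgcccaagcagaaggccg
RpL37-1: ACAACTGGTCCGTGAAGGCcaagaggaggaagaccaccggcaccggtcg
RpLP1: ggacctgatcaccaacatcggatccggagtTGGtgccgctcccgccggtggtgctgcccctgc
RpS26: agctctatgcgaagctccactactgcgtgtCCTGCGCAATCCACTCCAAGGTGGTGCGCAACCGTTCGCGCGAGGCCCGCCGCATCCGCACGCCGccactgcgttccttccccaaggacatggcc
RpL34a: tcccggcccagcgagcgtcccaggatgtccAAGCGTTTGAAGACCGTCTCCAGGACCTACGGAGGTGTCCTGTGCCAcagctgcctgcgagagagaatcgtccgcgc
These stretches had a GC content of 69.0% for RpL24, 63.3% for RpL37-1, 68.3% for RpLP1, 65.6% for RpS26 and 64.5% for RpL34a.

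Share of genes with a peak was compared between treatments, with all protein-coding genes, members included, as the background. It averaged 34.6% ± 0.777 after triptolide and 2.20% ± 1.55 in mock (SD, n = 2 lists each), a difference of 32.4 percentage points. The lists of the treatments did not overlap in this share, and the difference was larger than the spread between replicates. A two-sided exact permutation test gave p = 0.333, the smallest value that 2 lists against 2 allow, so this design cannot pass a usual threshold. Over all protein-coding genes the difference was 23.8 percentage points. Long genes offer more sequence for a peak, and the members span only 304 to 4677 bp. Among the 10478 protein-coding genes of at most 5000 bp, the share was 24.7% and 24.5% after triptolide, against 1.88% and 4.19% in mock. The members therefore stood 9.40 and 10.6 percentage points above short genes in the triptolide lists, and within 1 percentage point of them in the mock lists. From all protein-coding genes the members differed by 2.60 and 3.20 percentage points after triptolide, and by -4.75 and -6.73 in mock. The higher share in the triptolide lists was thus not confined to ribosomal protein genes, and the difference between members and other genes was not tested.

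**Figure D1:**
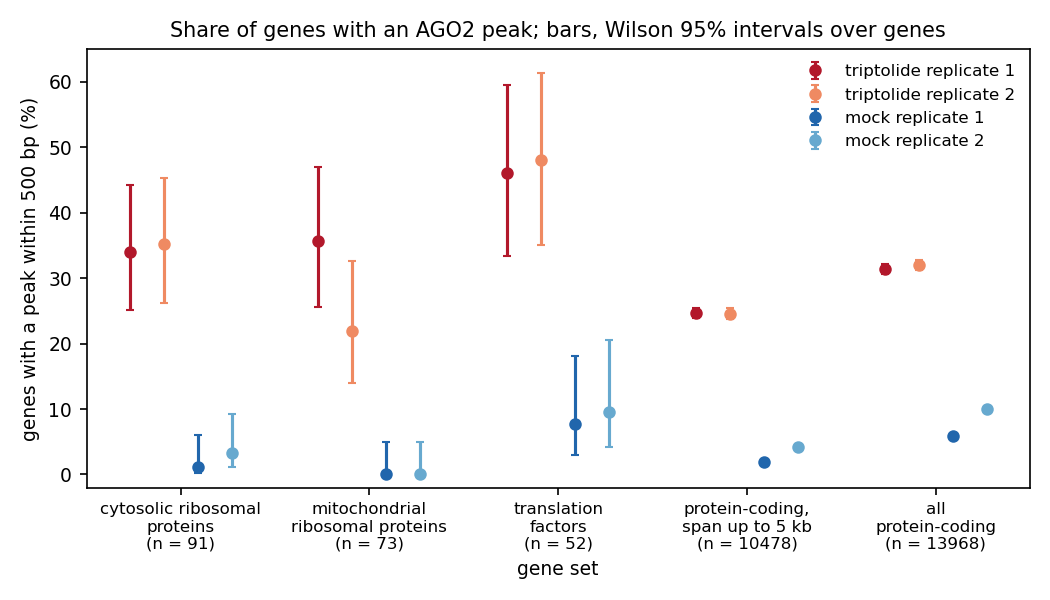
Share of genes with an AGO2 peak in the gene or within 500 bp of it (y axis, %) for the 5 gene sets on the x axis, with a point for each peak list and Wilson 95% intervals over genes, which cover counting error over genes only. Ribosomal protein genes sit at 34.1% and 35.2% in the triptolide lists, against 1.10% and 3.30% in the mock lists, and the background sets show a gap of the same direction.

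Other genes of the translation machinery gave shares of the same order in the triptolide lists. Among 73 genes for mitochondrial ribosomal proteins, which form the ribosome inside mitochondria, 26 and 16 had a peak after triptolide and 0 and 0 in mock. Their replicates differed more than those of the cytosolic genes, with 35.6% and 21.9%. A count of 0 of 73 genes has a Wilson upper bound of 5.00%. Among 52 genes for initiation and elongation factors, 24 and 25 had a peak after triptolide and 4 and 5 in mock. Peaks covered 5.66% and 6.14% of the bases in and around the cytosolic ribosomal protein genes after triptolide, against 0.163% and 0.654% in mock. For all short genes the covered part was 4.00% and 4.13% after triptolide, against 0.283% and 0.717% in mock.

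Both subunits contributed. Large subunit genes had a peak at 16 and 16 of 50 genes after triptolide, against 1 and 3 in mock. Small subunit genes had a peak at 12 and 13 of 38 genes after triptolide, against 0 and 0 in mock. Each of the 3 stalk genes was in both triptolide lists and in neither mock list. The smallest group thus had the highest share, at 3 of 3 genes, with a Wilson interval of 43.9% to 100% that covers counting error over genes only. Reproducible peaks, those in both triptolide lists, were found at 13 large subunit, 8 small subunit and 3 stalk genes. For the large and the small subunit this was 26.0% and 21.1%, against 22.5% of all protein-coding genes.

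**Figure D2:**
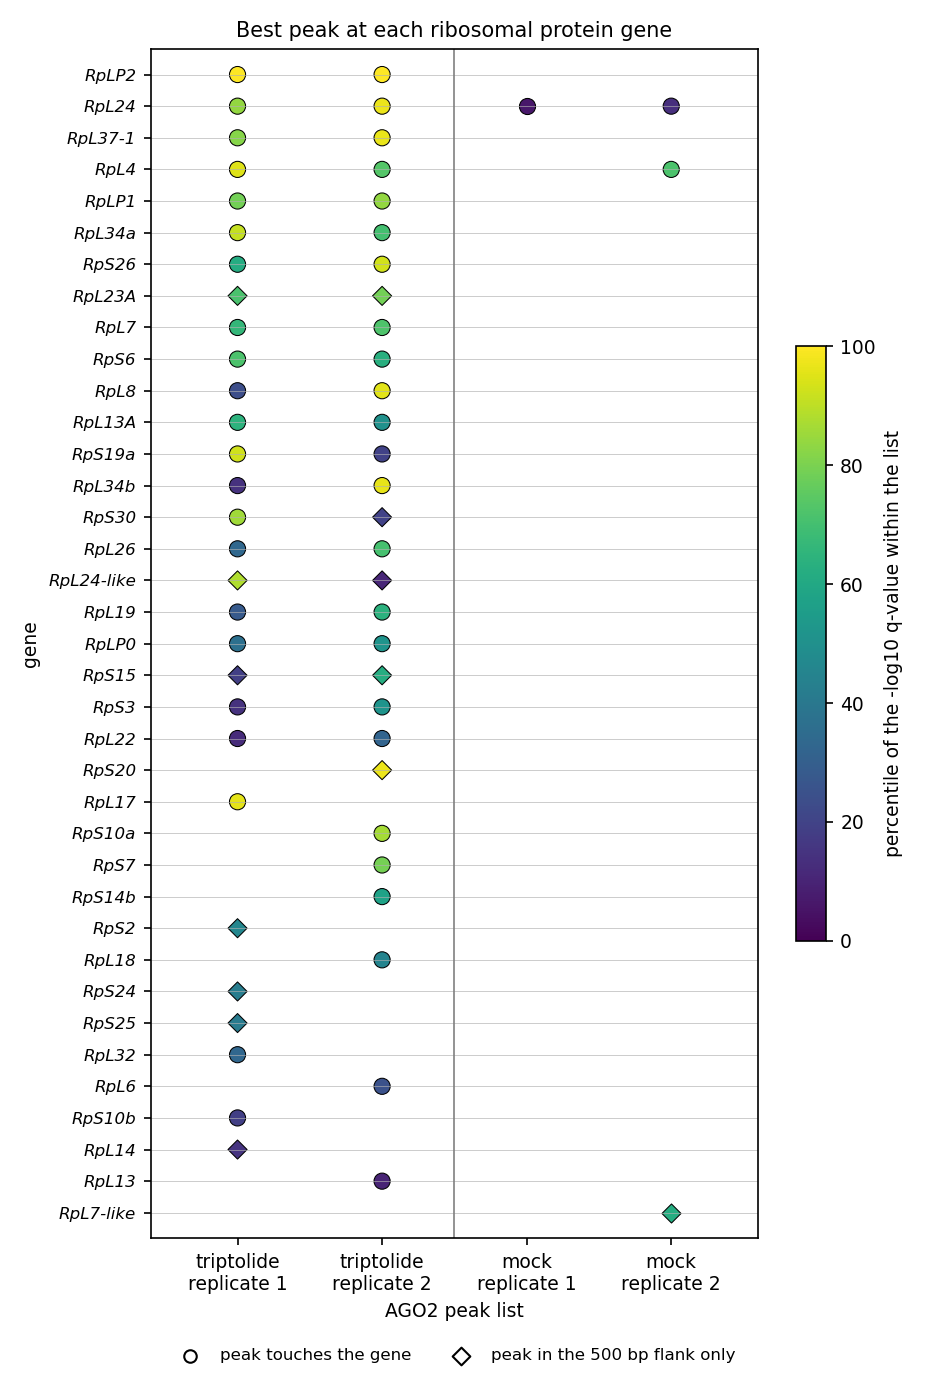
Members with a peak in any list (37 of 40 genes, y axis) against the 4 AGO2 peak lists (x axis), coloured by the percentile of the best peak within its own list. Circles are peaks that touch the gene, diamonds are peaks in the 500 bp flank, and an empty cell means that no peak was called. Filled cells lie almost entirely in the triptolide columns, and RpL24 is the row with all 4 cells filled.

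RpLP2, which encodes an acidic protein of the stalk, had the highest ranking peak of all members. Its fold over local background was 7.28 and 7.05 in triptolide replicates 1 and 2, and no peak was called in mock. These peaks stood at the 99.7 and 99.98 percentile of their lists, where the percentile is the rank of the −log10 q-value among all peaks of the list. Both summits lay in coding sequence, 308 and 287 bp from the annotated start of a gene that spans chr2R:16586129-16586732. The peaks therefore belonged to the strongest of the whole lists and differed by 21 bp in summit. RpLP1, its partner in the stalk, had folds of 3.80 and 3.66 after triptolide, at percentiles of 78.9 and 84.0, and summits 2 bp apart. RpLP0, the protein that anchors both to the ribosome, had folds of 3.00 and 3.21 at percentiles of 36.6 and 51.8. The stalk genes thus shared presence in both triptolide lists while their ranks ran from the lower middle to the top of the lists.

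RpL24, a large subunit protein that forms a bridge to the small subunit, had a peak in every list. Its coding peak had folds of 3.39 and 4.48 after triptolide, against 3.46 and 3.05 in mock. The folds of the treatments overlapped. Its −log10 q-value was 6.15 and 8.32 after triptolide, against 3.56 and 4.65 in mock, so a stricter threshold of 5 removed both mock peaks. Whole lists had median −log10 q-values of 3.95 and 3.88 after triptolide, against 10.8 and 13.4 in mock, so ranks within a list cannot be compared between treatments. The summits of the 4 lists fell between 586 and 641 bp from the start of the gene at chr2L:13393687-13395131. A further peak downstream of RpL24, which touched the neighbour CG7099, was called in both triptolide lists with folds of 2.95 and 3.23.

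The other mock peaks had their summits outside the members. In mock replicate 2, RpL4, whose protein lines the exit tunnel of the large subunit, had a peak with a fold of 6.37 whose summit was downstream of the gene and which touched mino and lncRNA:CR45566. RpL4 had the largest number of triptolide peaks together with RpL24, with 2 in each list. The RpL4 peaks had summits at 605 and 1709 bp from the start in triptolide replicate 1 and at 628 and 1500 bp in triptolide replicate 2, all in coding sequence. RpL7-like, a paralog of RpL7, had a mock replicate 2 peak with a fold of 5.04 whose summit was 351 bp upstream, which touched JhI-21 and whose GC content was 37.2%. Apart from RpL24, no member had a mock summit inside the gene.

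Among the remaining high ranking members, RpL37-1, a large subunit protein, had folds of 4.18 and 4.58 after triptolide at percentiles of 82.0 and 96.6. RpL34a had folds of 4.36 and 3.68 at percentiles of 91.3 and 70.0, and RpS26, which lies near the mRNA exit of the small subunit, had folds of 2.57 and 3.75 at percentiles of 61.4 and 93.2. Just below these, RpL7 had folds of 3.67 and 3.73, and RpS6, a target of the S6 kinase, had 3.71 and 3.35. These genes had no mock peak. RpL23A ranked among the first 10 members through a peak that touched a neighbour. Its overlapping pair, with folds of 3.28 and 3.71, lay downstream and touched CG7974, and a coding peak with a fold of 3.83 was called in triptolide replicate 2 alone. Peaks that touch a neighbour alone cannot be assigned to the ribosomal protein gene.

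Folds of a pair could differ between replicates. RpL8, chosen here with the other 2 genes after their values were seen, had folds of 2.34 and 4.16 in triptolide replicates 1 and 2, RpL34b had 2.41 and 4.99, and RpS19a had 4.63 and 2.41. A gene near the bottom of 1 list could therefore stand near the top of the other, as for RpL34b with percentiles of 14.4 and 96.4. Over all member peaks the median fold was 3.28 and 3.67 after triptolide, close to the 3.40 and 3.46 of the whole lists. The median percentile was 54.8 and 68.6, so the members' peaks were spread over the ranks of their lists.

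**Figure D3:**
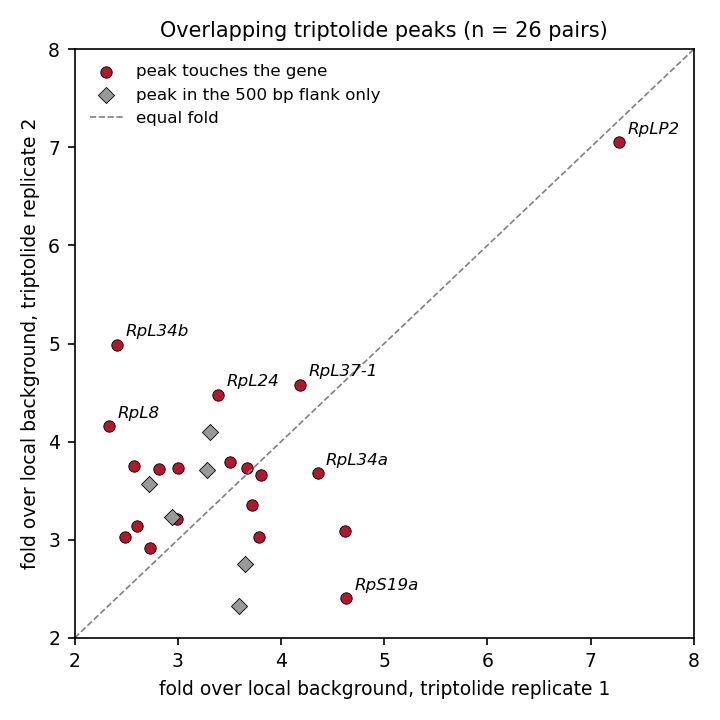
Fold over local background in triptolide replicate 1 (x axis) and replicate 2 (y axis) for the 26 pairs of overlapping triptolide peaks at 24 members, with circles for peaks that touch the gene and diamonds for peaks in the flank. RpLP2 stands apart at 7.28 and 7.05, and RpL34b, RpL8 and RpS19a lie far from the line of equal fold.

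All triptolide summits inside members fell in coding sequence. Triptolide replicates 1 and 2 held 37 and 36 member peaks, of which 27 and 27 had their summit inside the gene. Each of these 27 and 27 summits was in coding sequence, and 0 were in a 5′ UTR, an intron or a 3′ UTR. Coding sequence makes up 35.6% of the bases of the members, introns 33.3%, 3′ UTRs 20.8% and 5′ UTRs 9.99%. The other summits lay upstream of the gene (3 and 3) or downstream of it (7 and 6). The 1 mock summit of replicate 1 was coding, and the 3 of replicate 2 fell 1 each in coding sequence, upstream and downstream.

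Coding placement was shared with other genes. Among short genes other than members, 93.1% and 93.3% of the 2278 and 2337 triptolide summits inside genes were coding, against 25.5% and 38.2% of the 98 and 217 mock summits. In the mock lists of these other genes the 5′ UTR held 49.0% and 34.1% of the summits. The members had too few mock summits for the same comparison. Their share of summits in coding sequence was 74.0% after triptolide and 66.7% in mock, counting flanks, and the sign of this difference changed when mock replicate 2 was left out (-26.0 percentage points).

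Triptolide summits were seldom close to the annotated start. Within 250 bp of the start lay 1 of the 37 summits of triptolide replicate 1 and 0 of the 36 of triptolide replicate 2, against 0 of 1 and 0 of 3 in the mock lists. The median distance from the start was 703 and 693.5 bp after triptolide, against 594 and 641 bp in mock, where it rests on 1 and 3 peaks (p = 0.333, two-sided exact permutation test). This difference of 80.75 bp turned to -344.25 bp with equal list lengths and to -469.25 bp for peaks that overlap the gene itself, and was 8.75 bp from the nearest annotated transcript start. Inside the gene the median position was 0.511 and 0.494 of the span, where 0 is the start and 1 the end. Along the coding sequence itself the median summit lay at 57.0% and 58.6% of its length, with extremes of 20.0% and 84.8% in triptolide replicate 1. Where the coding sequence had several exons, 20 of 22 and 20 of 23 triptolide summits fell in the longest coding exon and 2 and 2 in the first. The typical placement was thus the middle of the gene, in its main coding exon. That exon holds more coding bases than any other of the gene, and no share expected from length was set beside these counts.

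**Figure D4:**
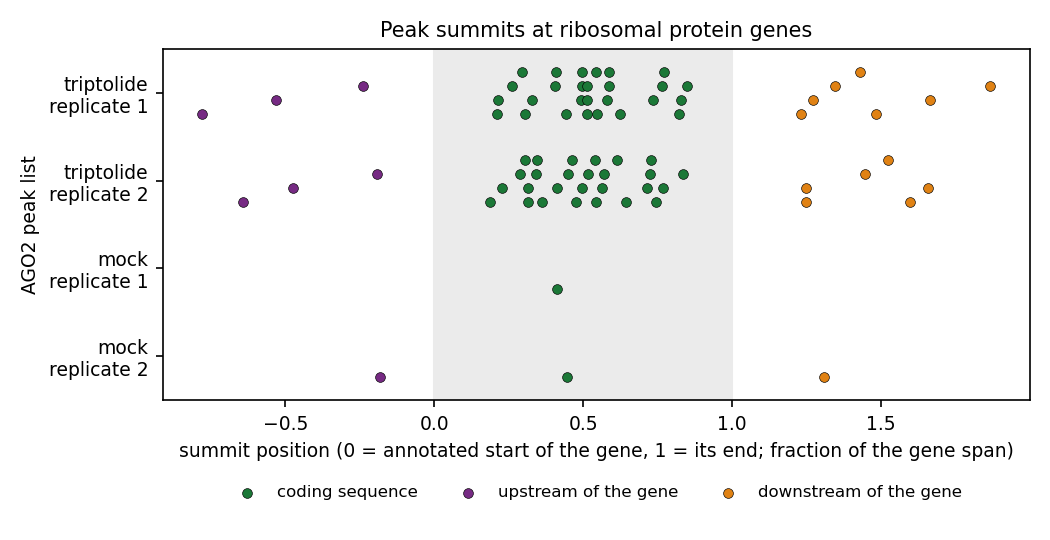
Position of each peak summit relative to the gene (x axis, 0 is the annotated start and 1 the end, in fractions of the gene span; grey marks the gene) in the 4 AGO2 peak lists (y axis), coloured by the feature at the summit. The 27 and 27 triptolide summits inside members are all coding and gather around the middle of the gene.

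Peaks confined to the flank touched neighbours. Flank peaks numbered 10 and 9 in the triptolide lists, and 0 and 1 in the mock lists, and all of them touched another annotated gene. They accounted alone for 5 and 6 of the members counted after triptolide. Counting only peaks that touch no other gene left 25 and 23 members after triptolide, against 1 and 1 in mock. At the edge of the 500 bp distance, RpS30 and RpS24 were counted with a triptolide peak at 484 and 491 bp. RpS24 with a triptolide replicate 2 peak at 585 bp and RpS14a with a triptolide replicate 1 peak at 598 bp were not. Some peaks touched a member and another annotated gene at once, since the RpS6 peaks touched CR33222, the RpS7 peak touched snoRNA:Psi28S-2626 and the RpS10a peak touched tau.

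Replicate agreement was compared by treatment. After triptolide, 24 members had a peak in both lists, 7 in replicate 1 alone, 8 in replicate 2 alone and 52 in neither. Of short genes, 16% had a peak in both triptolide lists. The 24 members were 61.5% of those with a peak in either list, against 54.9% for all protein-coding genes and 48.1% for short ones. In mock, 1 member had a peak in both lists, 2 in replicate 2 alone and 88 in neither, and both mock lists held 5.51% of all protein-coding genes and 1.72% of short ones. Of the triptolide member peaks, 73.0% and 72.2% were overlapped by a peak of the other replicate, against 56.7% and 53.9% of the whole lists. Of the mock member peaks, 100% of 1 and 66.7% of 3 were overlapped by the other mock list, against 90% and 48.4% of the whole lists.

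Where both triptolide lists had a peak, they usually named the same spot. At each of the 24 members a peak of replicate 1 overlapped a peak of replicate 2, which gave 26 pairs. Their summits were a median of 44.5 bp apart, 18 pairs were within 100 bp and 14 within 50 bp, and the widest distance was 327 bp, at RpS15. The feature was the same in both lists in all 26 pairs, and 20 were in coding sequence. No mock peak overlapped 24 of the 26 pairs, and the pairs with a mock peak belonged to RpL24 and RpL4.

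Another 15 members had a peak in a lone triptolide list. They included RpL14, RpL17, RpL32, RpS2, RpS10b, RpS24 and RpS25 in replicate 1, and RpL6, RpL13, RpL18, RpS7, RpS10a, RpS14b and RpS20 in replicate 2. RpL17 reached the 95.8 percentile of triptolide replicate 1 with a fold of 4.87 in coding sequence, and no peak of replicate 2 lay within 500 bp of it. RpS20 reached the 97.3 percentile of triptolide replicate 2 with a fold of 4.95, upstream of the gene, and touched CG17271. A high rank in 1 list did therefore not ensure a peak in the other.

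The difference in share shrank when lists were cut at a stricter threshold or to equal length. Neither cut makes the lists equal in strength. The stricter threshold left 1604 and 1454 peaks after triptolide, against 891 and 1626 in mock. Equal length keeps the whole of mock replicate 1, with its weakest peaks. At a −log10 q-value of at least 5, a peak remained at 12 and 12 members after triptolide, against 0 and 2 in mock, a difference of 12.1 percentage points. The corresponding shares of all protein-coding genes were 12.4% and 11% after triptolide, against 5.03% and 8.82% in mock. With the 1055 highest scoring peaks of each list, the counts were 10 and 10 members after triptolide and 1 and 2 in mock, a difference of 9.34 percentage points. All protein-coding genes then had shares of 8.66% and 8.46% after triptolide, against 5.85% and 6.14% in mock. Members with overlapping peaks in both triptolide lists numbered 5 at the stricter threshold and 3 with equal lists. The triptolide lists held more members than the mock lists in each of these settings.

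Base composition moved with the presence of a peak. Peaks at members had a median GC content of 60.3% and 60.5% after triptolide, and those of the whole lists had 58.9% and 59.8%, against 51.2% and 48.9% in the whole mock lists. The richest 400 bp window in each gene and its flanks had a median GC content of 61.8% in members with a peak in both triptolide lists (57.3% to 72.0%, n = 24), 60.5% in members with a peak in 1 list (52.3% to 67%, n = 15) and 54.6% in members with a peak in neither (39.3% to 61.5%, n = 52). The ranges of members with peaks in both lists and in neither overlapped between 57.3% and 61.5%. Of the 24 members with a window of 60% to 65% and the 6 at 65% or more, 21 and 6 had a peak in at least 1 triptolide list. Of the 29 members below 55%, 2 had such a peak, and of the 32 members between 55% and 60%, 10 had. Short genes other than members showed the same order, with 5.26% below 55%, 36.0% from 55% to 60%, 74.2% from 60% to 65% and 80.5% above. The part of base composition in these peaks was not tested.

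**Figure D5:**
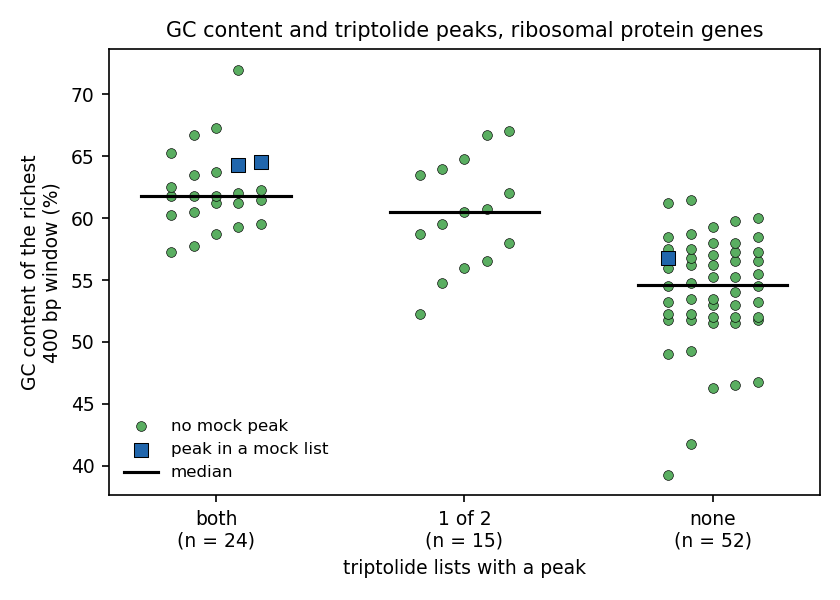
GC content of the richest 400 bp window in or around each ribosomal protein gene (y axis, %) for members with a peak in both, in 1 or in neither triptolide list (x axis), with a point for each gene, squares for genes with a mock peak and lines for medians. The medians are 61.8%, 60.5% and 54.6%.

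Summits also lay close to these windows. In 25 of 31 members in triptolide replicate 1 and 22 of 32 in triptolide replicate 2, a summit was within 200 bp of the centre of the richest window. Median distances were 42 and 56.5 bp. Where a member had several peaks, the summit nearest to the centre was taken, which need not belong to its best peak. Rank did not follow composition in each gene. RpL22, whose protein carries a long extension in flies, had the richest peaks of all members, at 71.1% and 70.1%, yet stood at percentiles of 12.3 and 31.7. Members without a peak included the poorest windows, RpL38 at 39.3%, RpL39 at 41.8% and RpL15 at 46.3%. They also included RpS14a at 61.5%, so a rich window did not always come with a peak. RpS14a and its near copy RpS14b are described with the paralogs.

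The 51 members without a peak in any list came from both subunits, with 30 large subunit and 21 small subunit genes. Among the first by symbol were RpL10, RpL10Aa, RpL10Ab, RpL11, RpL12, RpL15, RpL21, RpL22-like and RpL23. Among them, RpL11 is known for binding the Mdm2 ubiquitin ligase in mammals, and RpL10 for its place at the core of the large subunit. Absence from a list means only that no peak passed the caller, and the nearest triptolide peak to a member lay a median of 1.78 and 1.47 kb away over all 91 genes, against 57.9 and 29.8 kb for mock.

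Paralogs allow a comparison within a family, since 25 members fall into 12 families when grouped by symbol. In these 25 genes a peak was found at 10 and 11 after triptolide, against 1 and 2 in mock. Among the other 66 genes, 21 and 21 had a peak after triptolide, against 0 and 1 in mock. This was 31.8% in each triptolide list, against 31.5% and 32% of all protein-coding genes and 24.7% and 24.5% of short ones. For the 25 paralogs, Wilson intervals over genes were 23.4% to 59.3% and 26.7% to 62.9%, which include the shares of all protein-coding genes. The share of short genes lay inside the interval in replicate 1 and below it in replicate 2. The differences between these sets were not tested. In 5 families a single copy carried triptolide peaks in both lists and the other copy in none, among them RpL22 against RpL22-like, RpL37-1 against RpL37-2, RpL7 against RpL7-like and RpS19a against RpS19b. Both copies carried peaks in both lists for RpL34a and RpL34b (81.1% identical in coding sequence) and for RpL24 and RpL24-like, although the reproducible peak near RpL24-like lay upstream and touched CG5276. RpS10a had a peak in triptolide replicate 2 alone and RpS10b in triptolide replicate 1 alone. RpL10Aa and RpL10Ab, RpS15Aa and RpS15Ab, and RpS28a, RpS28b and RpS28-like had no peak in any list. RpS14b had a peak in triptolide replicate 2 alone and RpS14a in none. RpS14a and RpS14b (97.8% identical) and RpS15Aa and RpS15Ab (98.2%) remain uncertain, because the authors discarded reads that map equally well to several places.

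Alignment of the peak centre shows how far 2 such copies differ. RpS19a, a small subunit protein needed for ribosomal RNA maturation in yeast and human cells, had its summits within chrX:16638556-16638653, plus strand. The aligned stretch of RpS19b lies at chr3R:23933007-23933174, minus strand, with an intron left out. RpS19b is expressed mainly in the ovary, and RpS19a is the widely expressed copy. Capitals mark the stretch between the outermost triptolide summits, or the bases aligned with it.
RpS19a: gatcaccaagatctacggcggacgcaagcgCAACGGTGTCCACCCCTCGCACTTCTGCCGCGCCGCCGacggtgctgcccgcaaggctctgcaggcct
RpS19b: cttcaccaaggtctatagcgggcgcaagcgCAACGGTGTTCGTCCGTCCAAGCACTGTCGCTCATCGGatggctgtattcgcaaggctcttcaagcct
RpS19a and RpS19b matched at 69 of 98 bases (70.4%), with a GC content of 68.4% in RpS19a and 57.1% in RpS19b. The copy with peaks thus had the higher GC content in the aligned stretch, and this difference was not tested.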

How the data were processed

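AGO2 ChIP-seq was performed in Kc167 cells with 2 immunoprecipitations each after triptolide and mock treatment. The labels name cutadapt (version 1.10), Bowtie2, Picard (2.11.0) and MACS2 (2.1.1.20160309) with the dm6 build. In the study's methods, reads were trimmed and aligned by the authors, who discarded poorly mapping reads and duplicates. Peaks were called for each replicate against its input, and these lists were used here. The paper also called peaks on pooled replicates and tested differential binding from reads. There it reported more AGO2 sites lost than gained after triptolide, the opposite direction to the longer triptolide lists used here. That comparison was not repeated here. The score deposited by the authors ranks peaks, and the deposited fold is the ratio over local background. The authors' lists also give −log10 p-values, −log10 q-values and summit offsets. The lowest deposited −log10 q-value was 1.32. Peaks were ranked within a list by −log10 q-value. Read numbers were not used here, so depth is unknown and a missing peak may reflect the caller's threshold.

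Genes came from Ensembl release 115 on Release 6 (dm6), and 18 of 13986 protein-coding genes outside the placed nuclear chromosomes were left out. The sequences were read from that genome. Summits were assigned to 5′ UTR, coding sequence, 3′ UTR, other exon or intron, in that preference, or to a flank. Overlap required 1 bp. GC windows of 400 bp moved in steps of 10 bp. Values per list were compared by two-sided exact permutation tests, for which the smallest p-value is 0.333. Intervals are Wilson 95% intervals over genes. Peak lists hold no expression values, so the cell line was not checked by markers. The members, comparison lists and tests were chosen with earlier results of these data known.

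Named genes were members with a mock peak or a peak in all 4 lists, the 10 members with the largest mean percentile after triptolide, those with the most triptolide peaks, members without peaks (the first 10 by symbol) and paralogs. Some members are counted but not reported by name. Genes named for unstable rank, GC content, neighbours or distance were chosen after their values were seen. Alternatives were the distance to the gene, summits in place of peaks, a stricter threshold, equal list lengths, peaks that touch no other gene, other overlap rules, midpoints and each list left out. Transcript starts and summits inside the gene were added after seeing the data. Python 3.11.15, numpy 2.4.6, pandas 2.3.3, scipy 1.17.1 and matplotlib 3.10.9 were used, and scripts were tested on simulated data.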

Additional observations from a re-analysis of the deposited data

How the results depend on the processing

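Of 53 alternative values for the share, position and agreement of peaks, 39 kept their direction and, for counts, stayed within 1.5 times, 3 changed sign and 11 moved further or fell to 0. The 39 include the replicate-block values, which equal the main values by construction. Direction says nothing of size. The difference in share, 32.4 percentage points, ranged over 9.34 (equal list lengths), 12.1 (stricter threshold) and up to 40.7 (within 1000 bp) under other rules and over 31.3 to 33.5 with a list left out. The difference in median distance from the start, 80.75 bp, turned to -344.25 bp with equal list lengths and to -469.25 bp for peaks that overlap the gene, was 39 bp for peaks touching no other gene and 8.75 bp from the nearest transcript start, and ran over 57.25 to 104.25 bp with a list left out. The difference in coding share, 7.32 percentage points, became 0 for peaks touching no other gene, 35 with equal list lengths and 25 for peaks that overlap the gene, and ran over -26.0 to 40.7 with a list left out. The difference in summits within 250 bp of the start, 1.35 percentage points, rests on a lone summit: it became 0 with equal list lengths and with midpoints, and ran over 0 to 2.70 with a list left out. The share of triptolide peaks overlapped by the other replicate, 72.6%, was 50.7% for summits within 100 bp, 40.1% at the stricter threshold and 30.0% with equal list lengths. Members with overlapping peaks in both triptolide lists, 24, numbered 18 for summits within 100 bp and 5 and 3 in the last 2 settings, and those in both mock lists, 1, numbered 0 and 0. These changes follow from fewer peaks or other rules; the cause was not otherwise tested. At the stricter threshold the 3 position results were not run, because mock replicate 1 had 0 member peaks left. With the replicate number as a block, the difference in share stayed 32.4 percentage points, the other differences 80.75 bp, 7.32 and 1.35 percentage points, and the smallest p for 2 pairs is 0.5. Deviations of same-numbered lists had a correlation of -0.00687 over 13968 genes. With 2 lists per treatment, this value cannot tell whether same-numbered samples shared a culture or a batch.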

Other observations

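Members were counted by chromosome arm. On 3R, which holds 23 members, 52.2% ± 6.15 had a peak after triptolide and 2.17% ± 3.07 in mock (SD, n = 2 lists each). On 2R, with 20 members, the share was 17.5% ± 3.54 after triptolide and 0% in mock. Among short protein-coding genes the share after triptolide was 27.7% and 26.7% on 3R, and 23.2% and 23.3% on 2R. On X, with 14 members, 39.3% ± 5.05 had a peak after triptolide and 0% in mock, and short genes on X had 34.2% and 36.0% after triptolide. RpS3A, the sole member on chromosome 4, had no peak, and 0 of 18 short genes on that chromosome had one. The numbers of members are small, and arms were not compared by a test.

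Of the translation factor genes, 5 had a mock peak, and their best peaks lay at other distances from the start after triptolide. eIF1A, an initiation factor that binds the small subunit, had its best peak 3887 and 3833 bp from the start after triptolide, against 445 and 459 bp in mock, where the summit was coding. eIF4A, a helicase of initiation, had a peak at 2502 bp in triptolide replicate 2 alone, against 301 and 302 bp in mock. eIF3a, a scaffold of initiation, had its best peaks at 3410 and 3115 bp after triptolide, against 258 bp in mock replicate 2 alone. The mock peak was the nearer one in these 3 genes. eIF4E1, the cap-binding protein, had closer values, at 1567 and 1576 bp after triptolide, against 1321 and 1233 bp in mock. eIF4EHP, a related cap-binding protein, went the other way, at 1976 bp in triptolide replicate 1 alone, against 16074 and 3918 bp in mock. Over the 52 factor genes, 18 of 20 and 20 of 21 triptolide summits inside genes were in coding sequence, against 1 of 7 and 1 of 8 in mock, where eIF1A gave the coding summit. The difference in position was not tested.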
